A study of Caenorhabditis elegans with 16 samples.

Results

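The 9 genes described here are 8 dod genes (dod-3, dod-17, dod-19, dod-20, dod-21, dod-22, dod-23 and dod-24) and dct-17 of Caenorhabditis elegans, out of 24654 genes counted. They were taken by name. The set was built around dod-24 and dct-17, which were chosen by their measured food response: their transcripts were higher in fed than in starved larvae and that ratio was smaller in the cdk12-as strain. The fed and starved values of those genes are therefore given as a description without a test. Larvae of 2 strains were compared, N2 wild type and cdk12-as, whose CDK-12, a kinase of RNA polymerase II, was altered so that it can be blocked by the bulky compound 3MB-PP1. The allele and its clonal origin are not given in the labels. A density of embryos and a culture volume are given, but no count of larvae.

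All larvae hatched from bleached embryos in medium without food at 20 °C and were held there for at least 12 h, which arrests them in the first larval stage (L1). In each strain, 1 group was collected at the start of the experiment, still unfed. The other groups were held for 4 h more, in continued starvation with DMSO (the starved group), OP50 bacteria as food with DMSO (the fed group) and OP50 with the inhibitor 3MB-PP1 at 1 µM in DMSO (the fed group with inhibitor). Each of the 8 groups had 2 libraries of ribosome-depleted RNA from whole larvae. The labels call them replicates and do not say that they came from separate cultures. The p-values then rest on the spread of these libraries, which may be technical. Levels are counts-per-million values (CPM) on trimmed-mean-scaled library sizes, with SD over 2 libraries. Changes are log2 fold changes with SE from edgeR's quasi-likelihood test, and a gene is called at a Benjamini-Hochberg adjusted p under 0.05 over all 15845 genes tested.

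The names record how such genes were found. Genes called dod lie downstream of DAF-16, the FOXO transcription factor that insulin signalling through the receptor DAF-2 holds out of the nucleus, and dct genes were collected as DAF-16-controlled genes that affect germline tumours. When a fed worm signals through DAF-2, DAF-16 targets such as dod-3 are held low, while dod-17 and the genes numbered after it belong to the class that is low when DAF-16 is active. Several of them, including dod-17, dod-21, dod-22, dod-24 and dct-17, are known as genes of CUB-like secreted proteins made in the intestine, and some serve as readouts of innate immunity under the p38 kinase PMK-1. The CUB-like label was not checked for dod-3, dod-19, dod-20 and dod-23.

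Library totals ran from 18588196 to 56644943 gene counts. Of these, 34.79 to 50.7% belonged to the ribosomal gene rrn-2.1 in libraries numbered 1, and 20.3 to 33.39% in those numbered 2. Of the 9 genes, 7 passed the filter on low counts and were tested, and dod-21 and dod-23 did not. The wild-type library of replicate 1 fed with inhibitor stood apart from its partner in pharyngeal markers (summed 274 against 699 CPM). The same pair of libraries spanned 2400 to 4420 CPM in intestinal, 915 to 1750 CPM in epidermal and 2980 to 4810 CPM in muscle markers, and the changes of the 7 tested genes from start to food with inhibitor in wild type are also given without the library that stood apart. The cdk-12 transcript itself had between 33.8 and 47.7 CPM as a group mean. Because the strain carries an altered protein, its transcript level is no check on which strain a library came from. As markers of the larval tissues, the 10 measured of 12 intestinal genes listed had reads in every group.

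On the ce10 genome, 4 of the genes lie within a short stretch of chromosome IV. They are dod-21 (12935027 to 12937924), dod-24 (12940151 to 12941328, minus strand, 3 exons), dod-22 (12965427 to 12967219, plus strand, 8 exons) and dod-17 (12976284 to 12978210, plus strand, 8 exons). On chromosome V, dod-19 (411915 to 414717, minus strand, 6 exons) and dod-20 (422499 to 424167, plus strand, 7 exons) are 7782 bases apart. Also on V are dod-3 (2730701 to 2731078, minus strand, 2 exons) and dct-17 (13727800 to 13730760, minus strand, 12 exons). Alone on chromosome II is dod-23 (8398334 to 8399103, minus strand, 3 exons). The first 3 of 6 exons listed for dod-21 and the 3 of dod-24 have the same lengths, 133, 669 and 284 bases. The deposited exon table lists dod-21 on both strands, and 1086 of its 2172 exon bases overlap those of C32H11.9. Reads of such similar or overlapping genes may be divided between them by the counting, so the values of dod-21, and any part of the dod-24 value that comes from it, are uncertain.

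**Figure D1:**
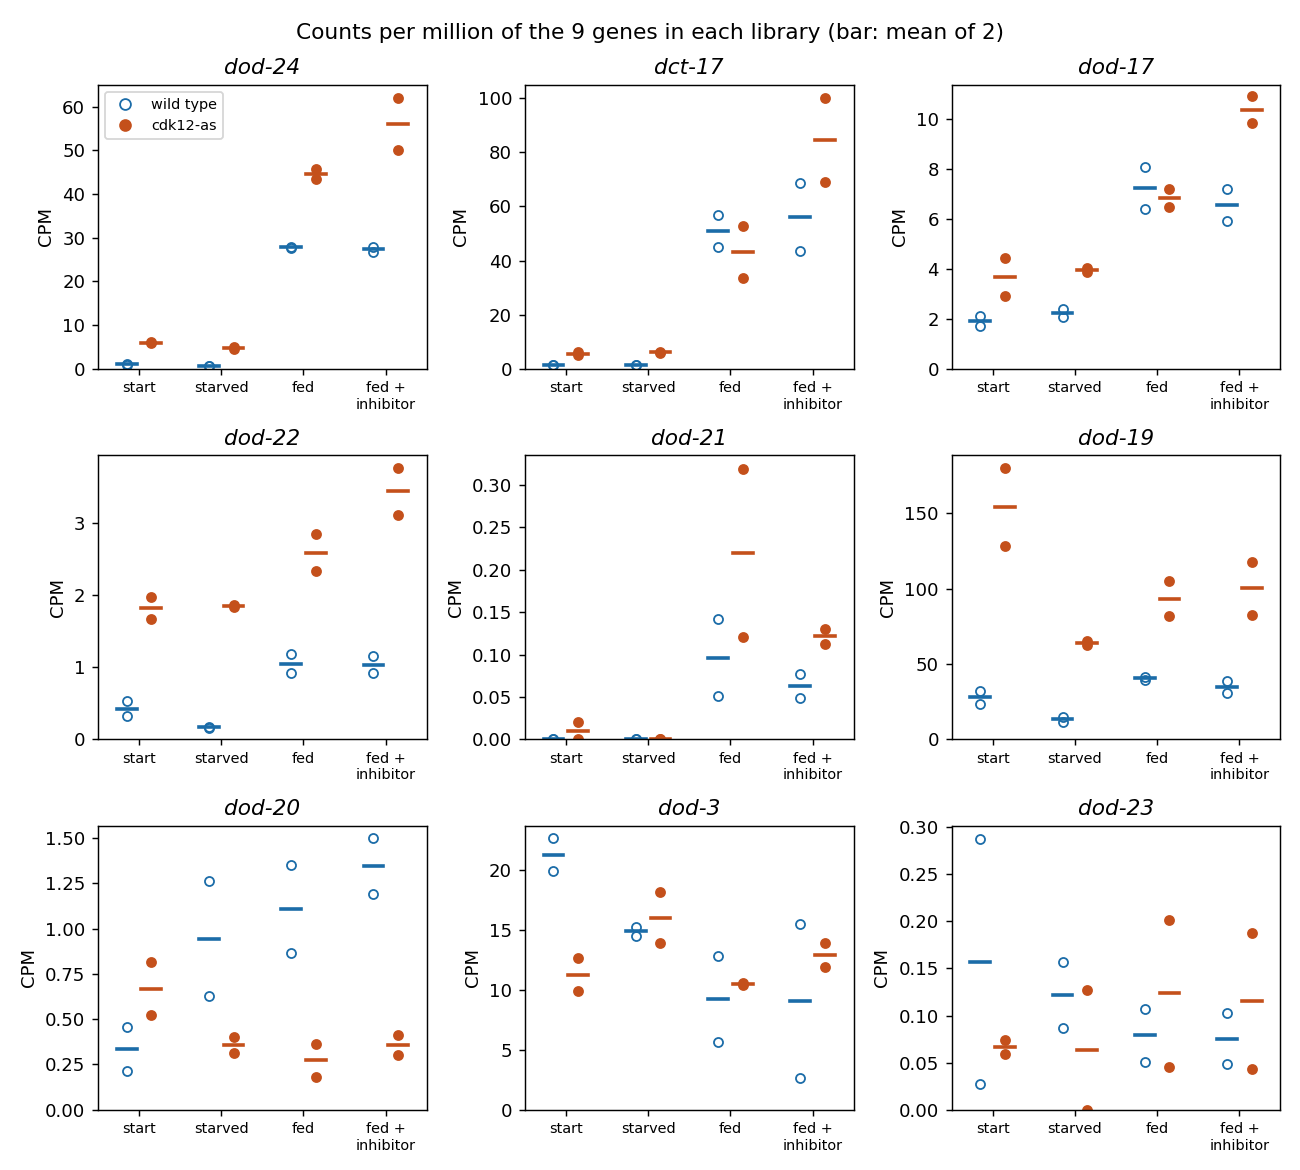
Levels in CPM (vertical axes, each starting at 0) of the 9 genes in each of 16 libraries, by group (horizontal axes). Open blue points are wild type, filled orange points cdk12-as, and bars are means of 2 libraries. In dod-24, dct-17, dod-17, dod-22 and dod-19 both cdk12-as libraries lie above both wild-type libraries in the unfed groups, while after food without inhibitor those of dod-17 and dct-17 overlap. At the start, 31.8% of all tested genes showed that order, and the share after starvation was not computed. Starved and fed values helped to choose dod-24 and dct-17.

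The transcript of dod-24 was nearly silent in unfed wild-type larvae and abundant after food. The libraries of replicates 1 and 2 had 1.12 and 0.86 CPM at the start, 0.601 and 0.565 CPM after starvation, 27.7 and 27.9 CPM after food and 26.8 and 27.9 CPM with food plus inhibitor. Those groups of cdk12-as had 5.88 and 6.08, 5.09 and 4.53, 43.5 and 45.7, and 50.1 and 61.9 CPM. The cdk12-as libraries were above the wild-type libraries in every group, fed groups included.

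The transcript of dct-17 had a similar course. In wild type the libraries had 1.53 and 1.45 CPM at the start, 1.44 and 1.39 CPM after starvation, 56.9 and 45.2 CPM after food and 68.7 and 43.5 CPM with food plus inhibitor. The cdk12-as libraries had 6.21 and 5.02, 6.33 and 5.93, 52.9 and 33.4, and 100 and 69.1 CPM. The strains overlapped after food alone, and the cdk12-as libraries were the higher ones in the other 3 groups.

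Food against starvation is the comparison by which the set was built, and its values describe how the smaller ratio in cdk12-as arose. In wild type dod-24 differed by 5.56 ± 0.16 on the log2 scale (47.1-fold) and dct-17 by 5.17 ± 0.31 (36-fold). In cdk12-as the values were 3.21 ± 0.13 (9.25-fold) and 2.81 ± 0.27 (7-fold). On the same log2 scale the strains differed by -2.35 ± 0.20 for dod-24 and by -2.36 ± 0.40 for dct-17. In CPM, however, the level of dod-24 gained 27.2 CPM with food in wild type and 39.8 CPM in cdk12-as, and no pairing of libraries reversed that order (27.1 to 27.3 against 38.4 to 41.2). For dct-17 the gain was 49.6 CPM in wild type (43.8 to 55.5 over pairings of libraries) and 37 CPM in cdk12-as (27 to 46.9), which overlap. The smaller ratio of dod-24 in cdk12-as thus came with a higher starved level, 4.81 ± 0.398 against 0.583 ± 0.0257 CPM, and a higher fed level, 44.6 ± 1.55 against 27.8 ± 0.0783 CPM.

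Among the other tested genes, the fed-to-starved difference in wild type was 2.67 ± 0.35 for dod-22, 1.68 ± 0.21 for dod-17, 1.61 ± 0.23 for dod-19, 0.31 ± 0.43 for dod-20 and -0.70 ± 0.56 for dod-3. In cdk12-as it was 0.49 ± 0.23, 0.78 ± 0.20, 0.55 ± 0.22, -0.25 ± 0.55 and -0.61 ± 0.55 in the same order. The wild-type value of dod-22 rests on 6 and 4 reads in the starved libraries. Over 2-fold higher were 5 of the 7 genes in wild type and 2 in cdk12-as. Of all genes tested, 12.2% and 5.07% were over 2-fold higher in these comparisons, and 24.4% and 15.6% were called higher, 21.5% and 12.1% lower. With total counts as the scaling, the share of calls that were higher was 26.2% in place of 53.1% in wild type, and in cdk12-as it was 43.5% in place of 56.4% with total counts less rrn-2.1. Nothing is read from these counts, since food chose the set.

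**Figure D2:**
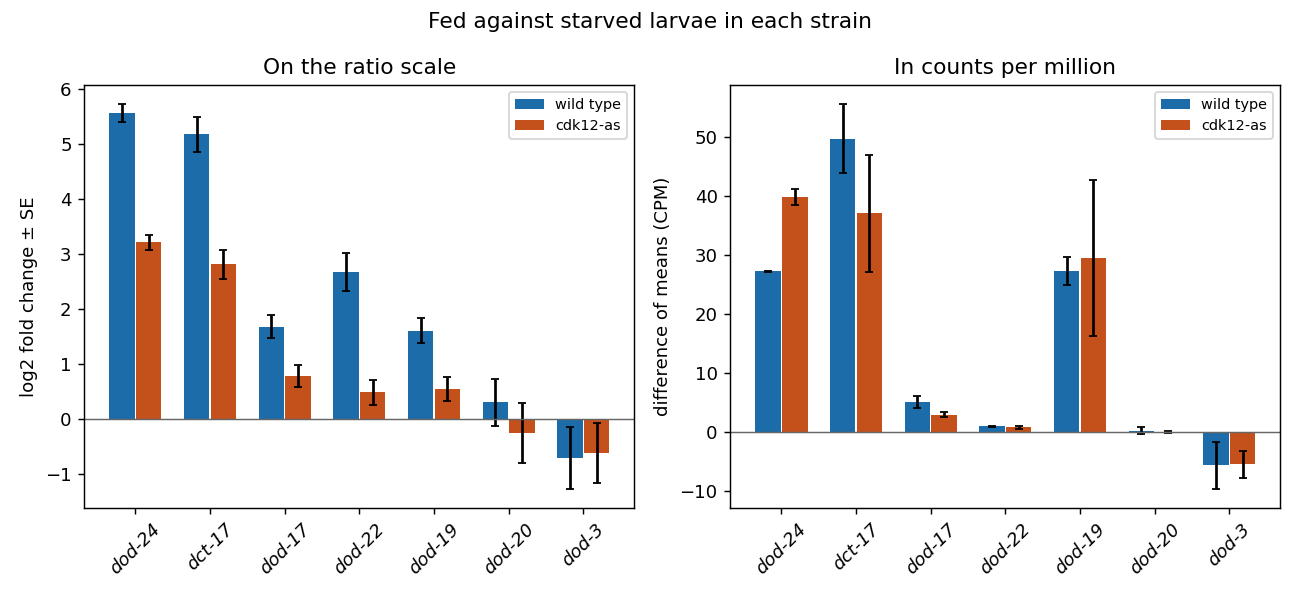
Fed against starved larvae for the 7 tested genes in wild type (blue) and cdk12-as (orange). Left, log2 fold change with SE; right, difference of group means in CPM, with bars from the smallest to the largest difference between single libraries. On the log2 scale dod-24 is 5.56 in wild type and 3.21 in cdk12-as, while in CPM it gains 27.2 and 39.8.

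The libraries collected at the start and those fed with inhibitor are not in the food contrast by which dod-24 and dct-17 were chosen, although results from all groups were known when the set was made. They ask whether the genes were already different between the strains before food, and how far they rose from there. The later group differs from the start by food, 4 h of time, DMSO and the inhibitor together.

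At the start, before any food or compound, 5 of the 7 tested genes were higher in cdk12-as and none was lower. Among all genes tested, 12.8% were called higher and 11.6% lower (3865 genes, and 1830 to 3039 with 1 library left out). The median log2 difference of the 7 genes was 1.90, the value of dct-17, against 0 over all genes tested. Both the count and the median include dod-24 and dct-17, which were chosen by a smaller food ratio in cdk12-as, so they are not independent of that choice. Among the genes not chosen in that way, dod-17, dod-19 and dod-22 were called higher, and dod-20 and dod-3 were not called. The gene with the largest difference was dod-24 (2.58 ± 0.14, 5.99-fold, adjusted p = 2.47e-06). It was followed by dod-19 (2.47 ± 0.23, adjusted p = 2.49e-05), dod-22 (2.09 ± 0.26, adjusted p = 0.00018), dct-17 (1.90 ± 0.30, adjusted p = 0.00073) and dod-17 (0.96 ± 0.21, adjusted p = 0.00639). For dod-17 the call did not hold when wild-type start replicate 1 (adjusted p = 0.0573) or cdk12-as start replicate 2 (adjusted p = 0.0821) was left out, when only the compared groups were fitted (adjusted p = 0.0524), or with total count scaling (adjusted p = 0.0842).

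In single libraries at the start, dod-19 had 32.2 and 23.4 CPM in wild type and 180 and 128 CPM in cdk12-as. For dod-22 the values were 0.526 and 0.322 CPM against 1.67 and 1.97 CPM, and for dod-17 they were 1.72 and 2.1 against 2.9 and 4.43 CPM. In each of these genes both cdk12-as libraries lay above both wild-type libraries. That order held for 6 of the 9 genes at the start, where 31.8% of all tested genes showed it. For dod-20 it held without a call (1.04 ± 0.47, adjusted p = 0.126). The DAF-16-activated gene dod-3 lay the other way, at 19.9 and 22.7 CPM in wild type and 9.89 and 12.7 CPM in cdk12-as, also without a call (-0.91 ± 0.54, adjusted p = 0.249).

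After 4 h of starvation, dod-22 (3.48 ± 0.33, adjusted p = 3.38e-05), dod-19 (2.27 ± 0.23, adjusted p = 5.26e-05) and dod-17 (0.81 ± 0.22, adjusted p = 0.0211) were higher in cdk12-as among the 5 genes tested there, where 9.80% of all genes were called higher and 8.28% lower. The size of the dod-22 difference rests on 6 and 4 reads in the wild-type starved libraries. The log2 differences of dod-24 and dct-17, whose starved libraries helped to choose them, were 3.03 ± 0.16 and 2.11 ± 0.31. The call on dod-17 was lost without any 1 of the 4 starved libraries (adjusted p = 0.0697 without wild-type replicate 1, 0.14 without wild-type replicate 2, 0.0707 without cdk12-as replicate 1 and 0.0901 without cdk12-as replicate 2) and with total count scaling (adjusted p = 0.205).

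From the start to food with inhibitor, 5 of the 7 genes rose in wild type and none fell, where 27.8% of all genes were called higher and 25.4% lower. The share of these calls that were higher, 52.3%, was 19.6% with total counts. Of the 5 genes that rose, dod-24 and dct-17 were chosen because they were higher with food. Their part in the count and their p-values are therefore not independent of that choice. The rise was 5.23 ± 0.31 for dct-17 (37.5-fold, adjusted p = 4.28e-08) and 4.77 ± 0.14 for dod-24 (27.3-fold, adjusted p = 1.1e-09). Smaller rises were found for dod-20 (2.01 ± 0.44, adjusted p = 0.00209), dod-17 (1.78 ± 0.21, adjusted p = 1.5e-05) and dod-22 (1.27 ± 0.27, adjusted p = 0.00179). With total count scaling the call on dod-22 was lost (0.83, adjusted p = 0.0903). Without the wild-type library that stood apart, the same 5 genes rose and 0 fell, at 4.87 for dct-17 (adjusted p = 1.63e-07), 4.81 for dod-24 (adjusted p = 8.64e-09), 1.84 for dod-20 (adjusted p = 0.0137), 1.64 for dod-17 (adjusted p = 0.000146) and 1.44 for dod-22 (adjusted p = 0.00272). In that fit dod-19 was at 0.49 (adjusted p = 0.15).

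In cdk12-as, 4 of the 7 genes rose and 1 fell over the same interval, where 17.6% of all genes were called higher and 19.2% lower (47.9% of calls higher, 15.2% with total counts). The 4 include dod-24 and dct-17, chosen by their food response, so the count and the p-values of these genes are not independent of that choice. The rise was 3.92 ± 0.28 for dct-17 (15.1-fold, adjusted p = 6.04e-07) and 3.23 ± 0.13 for dod-24 (9.36-fold, adjusted p = 1.94e-08). It was 1.48 ± 0.20 for dod-17 (adjusted p = 0.000106) and 0.92 ± 0.22 for dod-22 (adjusted p = 0.00619). The call on dod-22 was lost when cdk12-as start replicate 1 (adjusted p = 0.0507) or the second library fed with inhibitor (adjusted p = 0.0632) was left out and with total count scaling (0.53, adjusted p = 0.233). The gene that fell was dod-19 (-0.61 ± 0.22, adjusted p = 0.0439), a call that did not hold when cdk12-as start replicate 1 (-0.35, adjusted p = 0.327) or the first library fed with inhibitor (-0.34, adjusted p = 0.359) was left out, nor when only the compared groups were fitted (adjusted p = 0.114).

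The change from the start to food with inhibitor was smaller or more negative in cdk12-as than in wild type for 4 genes and larger for none, where 15.9% of all genes were called lower in this difference and 10.8% higher. Of the 4, dod-24 and dct-17 were chosen by a smaller food ratio in cdk12-as, so their part in this count is not independent of that choice. The difference was -1.55 ± 0.18 for dod-24 (adjusted p = 5.37e-05) and -2.88 ± 0.64 for dod-20 (adjusted p = 0.00512). For dct-17 it was -1.31 ± 0.38 (adjusted p = 0.0226). It missed the threshold when either wild-type start library was left out (adjusted p = 0.0608 and 0.0936), or the wild-type library that stood apart (-0.96, adjusted p = 0.0794), cdk12-as start replicate 1 (adjusted p = 0.0778) or the second cdk12-as library fed with inhibitor (adjusted p = 0.0749). For dod-19 it was -0.94 ± 0.31 (adjusted p = 0.0417), which missed the threshold when replicate 1 of either cdk12-as group (adjusted p = 0.172 at the start and 0.159 after food) or replicate 2 of either wild-type group (adjusted p = 0.194 and 0.122) was left out. The same was seen with total counts (adjusted p = 0.314), with total counts less rrn-2.1 (adjusted p = 0.0564), with a filter at 1 CPM in 2 libraries (adjusted p = 0.0563) and with only the compared groups fitted (adjusted p = 0.098). The values of dod-17 (-0.30 ± 0.29, adjusted p = 0.498) and dod-22 (-0.35 ± 0.35, adjusted p = 0.515) did not pass. Without the wild-type library that stood apart, 3 genes were lower in this difference and 0 higher, namely dod-24 (-1.59, adjusted p = 0.000145), dod-19 (-1.12, adjusted p = 0.0322) and dod-20 (-2.73, adjusted p = 0.0158).

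This difference is computed from the same 8 libraries as the strain differences before and after food, and equals the later one less the earlier one on the log2 scale. After food with inhibitor, dod-24 was still higher in cdk12-as, by 1.04 ± 0.11 (adjusted p = 1.24e-05), as were dod-22 (1.74 ± 0.23, adjusted p = 6.3e-05), dod-19 (1.53 ± 0.22, adjusted p = 0.000129) and dod-17 (0.66 ± 0.20, adjusted p = 0.0161). Among all genes, 19.8% were called higher and 22.5% lower. For dod-17 it did not hold when cdk12-as replicate 1 (adjusted p = 0.0803) or wild-type replicate 2 (adjusted p = 0.114) was left out, or with total count scaling (adjusted p = 0.0926). Without the library that stood apart, the differences of dod-24 (1, adjusted p = 0.000228), dod-22 (1.56, adjusted p = 0.00117), dod-19 (1.36, adjusted p = 0.00254) and dod-17 (0.80, adjusted p = 0.021) passed as well. For dct-17 the difference was 0.59 ± 0.24 (adjusted p = 0.07). It passed when wild-type replicate 1, the library that stood apart (0.95, adjusted p = 0.0168), or cdk12-as replicate 2 (0.84, adjusted p = 0.0308) was left out, when replicate number entered as a block (0.60, adjusted p = 0.000903), with DESeq2 (adjusted p = 0.0482), with total counts (adjusted p = 0.0477) and with no filter (adjusted p = 0.0453).

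On the CPM scale, dod-24 gained 26.3 CPM between start and food with inhibitor in wild type (25.6 to 27 over pairings of libraries) and 50.0 CPM in cdk12-as (44 to 56). The gain of dct-17 was 54.6 CPM (42 to 67.2) and 78.9 CPM (62.9 to 95). The smaller log2 rises of both genes in cdk12-as therefore started from higher levels and ended at higher group means.

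**Figure D3:**
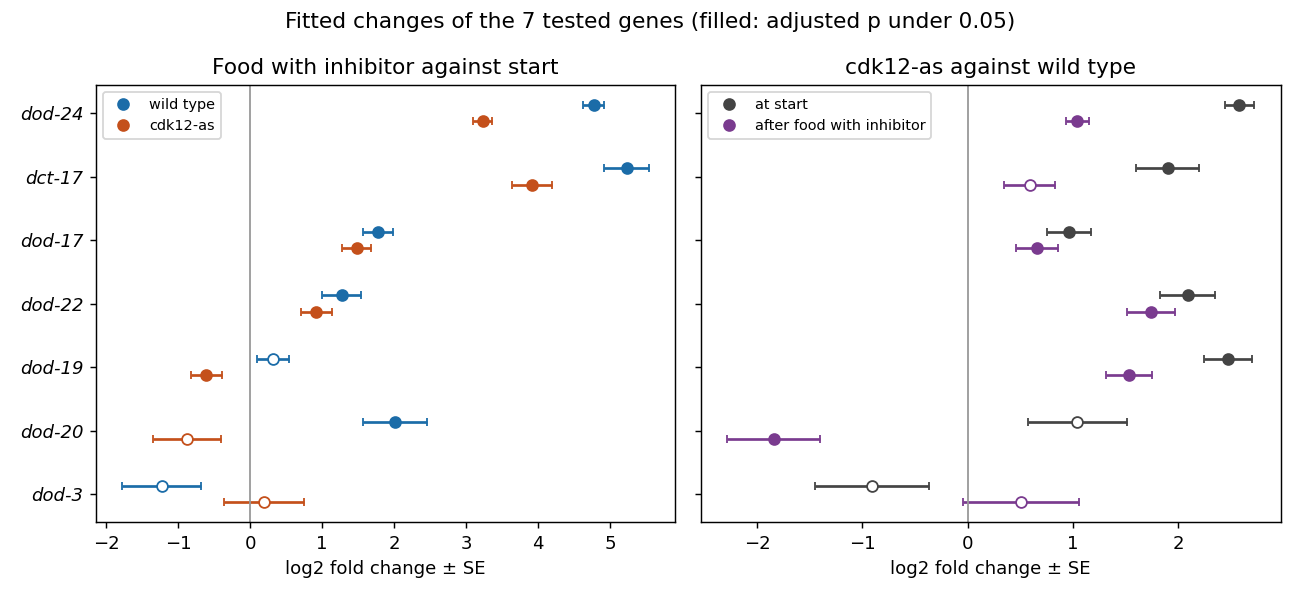
Log2 fold changes with SE for the 7 tested genes. Left, food with inhibitor against start in wild type (blue) and cdk12-as (orange); right, cdk12-as against wild type at the start (grey) and after food with inhibitor (purple); filled points passed at adjusted p under 0.05. The strain difference of dod-24 is 2.58 at the start and 1.04 after food with inhibitor, and that of dod-20 is 1.04 and -1.84.

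The neighbours dod-19 and dod-20 behaved unlike each other. In wild type dod-20 had 0.215 and 0.457 CPM at the start, 0.627 and 1.26 CPM after starvation, 1.35 and 0.867 CPM after food and 1.5 and 1.19 CPM after food with inhibitor. In cdk12-as it had 0.521 and 0.814, 0.316 and 0.401, 0.182 and 0.364, and 0.303 and 0.414 CPM. It was the 1 member that was lower in cdk12-as after food, by -1.91 ± 0.48 without inhibitor (adjusted p = 0.0108) and by -1.84 ± 0.44 with it (adjusted p = 0.00468), where 16.2% and 22.5% of all genes were called lower. The second value was -1.67 (adjusted p = 0.0265) without the library that stood apart. After food without inhibitor, the share of calls that were higher was 44.1%, and 85.4% with total counts. These values rest on 4 to 62 reads per library, and the first of these missed the threshold when the first fed library of wild type (adjusted p = 0.112) or of cdk12-as (adjusted p = 0.0604) was left out, and with total counts (adjusted p = 0.0692).

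By contrast dod-19 was, per exon length, the most abundant of the 9 genes in cdk12-as at the start (126 ± 29.9 RPKM, which is CPM per kilobase of exon) and fell during further starvation. It went from 32.2 and 23.4 CPM to 14.8 and 11.6 CPM in wild type (-1.07 ± 0.23, adjusted p = 0.0158) and from 180 and 128 CPM to 62.7 and 65.4 CPM in cdk12-as (-1.26 ± 0.22, adjusted p = 0.00806). Starved and start libraries did not overlap in either strain. Of the 5 genes tested there it was the 1 called in either strain with all libraries, where 3.07% and 3.08% of all genes were called lower and 3.04% and 2.74% higher. The share of these calls that were higher was 49.7% and 47.1%, and 24.9% and 19.1% with total counts. In wild type dod-22 was at -1.37 ± 0.38 (adjusted p = 0.0555) and was called with total counts less rrn-2.1 (adjusted p = 0.041), with the filter at 1 CPM (adjusted p = 0.0449) and without start replicate 2 (-1.69, adjusted p = 0.0386), and dod-3 (-0.52 ± 0.54) was called with only the compared groups fitted (adjusted p = 0.0269). Both calls on dod-19 depended on single libraries. In wild type it missed the threshold when start replicate 1 (-0.82, adjusted p = 0.171) or either starved library (adjusted p = 0.0506 and 0.159) was left out, and with total counts (adjusted p = 0.0963). In cdk12-as it did so when start replicate 1 (adjusted p = 0.1) or either starved library (adjusted p = 0.0604 and 0.0689) was left out. After food dod-19 was at 39.6 and 41.2 CPM in wild type and 81.6 and 105 CPM in cdk12-as, and remained the higher in cdk12-as (1.21 ± 0.22, adjusted p = 0.00172), as did dod-22 (1.30 ± 0.25, adjusted p = 0.00218), where 12.7% of all genes were called higher.

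Between dod-17 and dod-22, which share the lengths of 3 of their 8 exons (110, 146 and 62 bases), dod-22 showed the larger strain difference. It had 0.157 and 0.174 CPM in starved wild-type larvae (6 and 4 reads) and 1.18 and 0.918 CPM in fed ones (33 and 18 reads). In cdk12-as it had 1.87 and 1.84 CPM in starved and 2.33 and 2.85 CPM in fed larvae. The starved cdk12-as libraries were thus above the fed wild-type ones. In the same order of groups, dod-17 had 2.4 and 2.09, 8.09 and 6.38, 3.89 and 4.05, and 7.21 and 6.46 CPM, so that the fed groups of the 2 strains overlapped (-0.09 ± 0.20, adjusted p = 0.78).

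In dod-3, known as a target that DAF-16 activates, no comparison passed the test with all libraries. Wild-type libraries had 19.9 and 22.7 CPM at the start, 14.5 and 15.3 CPM after starvation, 5.66 and 12.8 CPM after food and 2.68 and 15.5 CPM after food with inhibitor. The cdk12-as libraries had 9.89 and 12.7, 13.9 and 18.2, 10.6 and 10.4, and 13.9 and 11.9 CPM. The change from start to food with inhibitor in wild type was -1.23 ± 0.55 (adjusted p = 0.0769) and depended on which library fed with inhibitor was kept. It was -0.45 (adjusted p = 0.311) without replicate 1, the library that stood apart, and -2.98 (adjusted p = 8.88e-05) without replicate 2. The strain difference of this change was 0.63 (adjusted p = 0.354) without replicate 1 and 3.17 (adjusted p = 0.000523) without replicate 2. After food with inhibitor the strain difference was -0.28 (adjusted p = 0.564) and 2.26 (adjusted p = 0.000793) in the same order. The wild-type change was also called when replicate number entered as a block (-1.36, adjusted p = 0.0149), with no filter (-1.24, adjusted p = 0.0399), with total counts (-1.60, adjusted p = 0.0487) and with total counts less rrn-2.1 (-1.58, adjusted p = 0.0218). At the start, the strain difference of dod-3 was called with only the compared groups fitted (-0.91, adjusted p = 0.0138).

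The 2 genes under the filter were counted by a handful of reads. In the 8 unfed libraries dod-21 had 1 read in all, and in the 8 fed libraries it had 32, with 1 to 7 in each library. For dod-23 the 8 unfed libraries held 30 reads (0 to 12) and the 8 fed libraries 32 (1 to 10), with no order between groups. At these depths 3 reads correspond to 0.0565 to 0.153 CPM, and neither gene was tested for a difference between strains. The 4 fed cdk12-as libraries, with and without inhibitor, held 22 reads of dod-21 (3 to 7 each) and the 4 of wild type 10 (1 to 4). For dod-23 the fed counts were 22 (1 to 10) and 10 (1 to 4), and the unfed ones 9 (0 to 4) and 21 (1 to 12).

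The inhibitor was compared with food alone in each strain. In wild type, which lacks the analog-sensitive kinase, edgeR called 0 genes of 15845 (305 had an unadjusted p under 0.05, and DESeq2 called 3), and none of the 5 dod genes tested. The 95% intervals of those 5 changes ran from -0.58 to 0.29 for dod-17, from -0.59 to 0.54 for dod-22, from -0.70 to 0.26 for dod-19, from -0.63 to 1.13 for dod-20 and from -1.23 to 1.21 for dod-3. In cdk12-as the inhibitor moved 12.1% of all genes, 3.77% higher and 8.37% lower (31.1% of calls higher, 5.32% with total counts), and none of the 5 passed in edgeR. The nearest was dod-17, at 7.21 and 6.46 CPM without and 10.9 and 9.85 CPM with inhibitor (0.60 ± 0.20, adjusted p = 0.0694). It had an unadjusted p under 0.05, as 1 of the 5, and was called by DESeq2 (0.58, adjusted p = 0.0468) and when replicate number entered as a block (0.61, adjusted p = 0.0335). In cdk12-as the 95% intervals ran from 0.18 to 1.03 for dod-17, from -0.07 to 0.88 for dod-22 and from -0.37 to 0.58 for dod-19. They ran from -0.82 to 1.46 for dod-20 and from -0.90 to 1.49 for dod-3. The log2 values of the genes that chose the set were 0.97 ± 0.25 for dct-17 and 0.33 ± 0.11 for dod-24 in cdk12-as, and 0.14 ± 0.24 and -0.03 ± 0.11 in wild type. The inhibitor's difference between strains was called by edgeR for 0 of the 5 (1 had an unadjusted p under 0.05, and DESeq2 called 0), where 6.94% of all genes were called (13.2% of calls higher, 2.89% with total counts).

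Per exon length, in RPKM, dod-3 was the most abundant of the 9 genes in unfed wild type (66.4 ± 6.26 at the start), followed by dod-19 (22.8 ± 5.1) and, far below, dod-17 (1.86 ± 0.257) and dod-24 (0.914 ± 0.173). After food the top 4 in wild type were dod-19 (33.1 ± 0.886), dod-3 (28.8 ± 15.7), dod-24 (25.6 ± 0.0721) and dct-17 (23 ± 3.72), of which dod-3 could not be told from its neighbours within its spread. In fed cdk12-as the order was dod-19 (76.6 ± 13.8), dod-24 (41.1 ± 1.42), dod-3 (32.7 ± 0.439) and dct-17 (19.4 ± 6.21). At the start cdk12-as held dod-24 at 5.5 ± 0.131 and dct-17 at 2.53 ± 0.378 RPKM.

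Across the 8 group means of log2 CPM, dod-17 followed both dod-24 (Pearson r 0.97) and dct-17 (0.98), and dod-22 followed dod-19 (0.91) more closely than dod-24 (0.82), dod-17 (0.77) or dct-17 (0.71). With dod-24, dod-3 had an r of -0.69 and dod-20 one of -0.01. These values describe 8 points that share libraries and the contrast between fed and unfed larvae. Among 8451 genes whose mean level reached 5 CPM, those most like dod-24 were C17F4.7 (0.995), C17H12.8 (0.992), bed-3 (0.988), nrde-3 (0.988) and cpt-2 (0.987). Most like dct-17 were C17C3.1 (0.995), Y7A9A.79 (0.994), T04G9.4 (0.992), F35E12.6 (0.992) and cct-2 (0.991). The levels of C17F4.7 were 29.9 ± 0.47 CPM at the start and 151 ± 11.4 CPM after food in wild type, and 71.4 ± 8.66 and 214 ± 8.25 CPM in cdk12-as. Of the genes most like dct-17, F35E12.6 lies 3611 bases from it and went from 18.9 ± 0.29 to 109 ± 6.06 CPM in wild type and from 34.8 ± 2.85 to 92.3 ± 21.5 CPM in cdk12-as.

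The genes around dod-21, dod-24, dod-22 and dod-17 on chromosome IV were taken as 25 counted genes, those named for the cosmid clones C32H11, F55G11 and K10D11 with dct-19 and srz-15, of which 16 were tested. At the start, 7 of these 16 were higher in cdk12-as and 0 lower, where 12.8% of all genes were called higher and 11.6% lower. Their median was 0.96 against 0 over all genes. The largest difference was that of F55G11.4, which lies 745 bases from dod-17, with 1.69 ± 0.264 CPM in wild type and 15.3 ± 1.2 CPM in cdk12-as (3.17 ± 0.19, adjusted p = 2.72e-06). Next to these, K10D11.5 had a difference of 2.05 ± 0.21 (adjusted p = 3.86e-05) and C32H11.4 one of 1.55 ± 0.17 (adjusted p = 6.05e-05), while F55G11.2, 239 bases from dod-22, had 0.58 ± 0.21 (adjusted p = 0.0574). Names of this kind say only where a gene lies.

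From the start to food with inhibitor in wild type, 10 of the 16 rose and 5 fell (7 and 5 with total counts, 8 and 2 without the library that stood apart). Over all genes, 27.8% were called higher and 25.4% lower. Rises were found for K10D11.5 (3.76 ± 0.21, adjusted p = 2.54e-08), C32H11.4 (3.71 ± 0.17, adjusted p = 8.14e-09), F55G11.2 (2.63 ± 0.20, adjusted p = 3.7e-07) and F55G11.4 (2.32 ± 0.19, adjusted p = 7.43e-07). Beside dod-24, dct-19 had 0 reads in both wild-type start libraries and 50 in the pair fed with inhibitor, at least 16.4-fold higher when 3 reads are taken as the floor over the start group. Among the genes that fell were F55G11.7 (-2.27 ± 0.78, adjusted p = 0.0264) and K10D11.2 (-1.94 ± 0.43, adjusted p = 0.00231), so the stretch did not move as a block. Both were named after their values were seen, as was dct-19. In the difference of this change between strains, 5 of the 16 were lower in cdk12-as and 0 higher, where 15.9% of all genes were called lower and 10.8% higher. With total counts it was 2 lower and 0 higher, and without the library that stood apart 5 and 0.

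**Figure D4:**
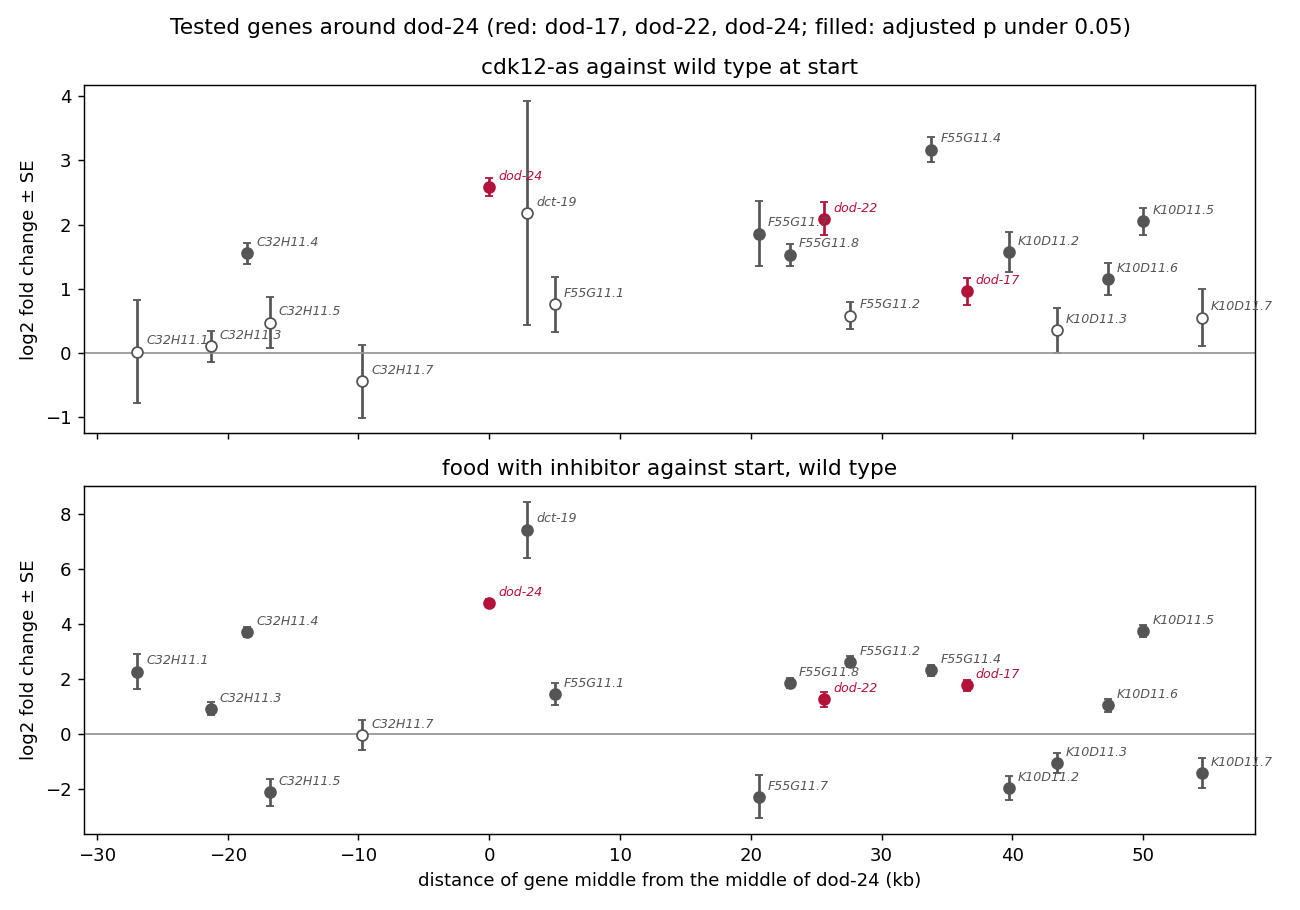
Log2 fold changes with SE of the tested genes around dod-24 by distance of their middles from that of dod-24 in kb. Top, cdk12-as against wild type at the start; bottom, food with inhibitor against start in wild type; red marks dod-24, dod-22 and dod-17, and filled points passed at adjusted p under 0.05. At the start 10 of the 19 genes shown, 3 of them the red ones, were higher in cdk12-as and 0 lower, where 12.8% of all genes were called higher and 11.6% lower. Genes that rose and genes that fell after food both occur along the stretch.

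Within 10000 bases of any of the 9 genes, 51 other genes were counted and 27 tested, a list made after the positions were known and overlapping the previous one. Of the 27, 12 were higher and 1 lower in cdk12-as at the start, where 12.8% of all genes were called higher and 11.6% lower. From the start to food with inhibitor in wild type, 11 rose and 7 fell. The balance of the latter turned with scaling, to 6 and 9 with total counts and to 10 and 10 with total counts less rrn-2.1, beside shares over all genes of 27.8% higher and 25.4% lower. Without the library that stood apart 28 were tested, of which 10 rose and 6 fell. Between dod-19 and dod-20, ZK6.11 was at 12.6 ± 1.1 CPM in wild type and 47.7 ± 14.8 CPM in cdk12-as at the start (1.92 ± 0.20, adjusted p = 4.24e-05). Of the neighbours of dct-17, F35E12.6 had a strain difference of 0.88 ± 0.20 (adjusted p = 0.00787).

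Immune effector genes outside the set were followed as a list of 19, of which 18 were tested. From the start to food with inhibitor, 10 rose and 2 fell in wild type (median 1.39, against -0.03 over all genes; 9 and 3 with total counts, 10 and 5 with total counts less rrn-2.1) and 11 rose and 1 fell in cdk12-as (median 1.14). Over all genes tested, 27.8% rose and 25.4% fell in wild type and 17.6% rose and 19.2% fell in cdk12-as, which are the shares to set beside each list that follows. Without the wild-type library that stood apart the count in wild type was again 10 and 2. The infection response gene irg-4 rose from 2.38 ± 0.701 to 91.7 ± 2.27 CPM in wild type (5.26 ± 0.20, adjusted p = 2.6e-09) and from 7.96 ± 1.74 to 70.4 ± 7.0 CPM in cdk12-as. The lysozyme gene lys-1 rose from 61.9 ± 2.16 to 164 ± 20 CPM and from 153 ± 1.68 to 286 ± 24.7 CPM. The immune gene C17H12.8 rose from 3.28 ± 0.645 to 18.6 ± 4.31 CPM and from 6.60 ± 0.345 to 32.9 ± 0.473 CPM, and irg-3 from 4.48 ± 0.545 to 21.4 ± 1.82 CPM and from 3.64 ± 0.25 to 9.22 ± 0.925 CPM.

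At the start, 9 of these 18 were higher and 2 lower in cdk12-as, with a median difference of 0.91. Over all genes tested, 12.8% were called higher and 11.6% lower at the start. Those shares also belong beside the start count of each list that follows. With irg-4 the strain difference was 1.73 ± 0.19 (adjusted p = 6.18e-05), with lys-1 1.31 ± 0.10 (adjusted p = 7.97e-06) and with C17H12.8 1 ± 0.21 (adjusted p = 0.00488), while irg-3 had -0.29 ± 0.18 (adjusted p = 0.257). After food with inhibitor the difference of irg-4 did not pass (-0.38 ± 0.16, adjusted p = 0.0772) and irg-3 was lower in cdk12-as (-1.22 ± 0.17, adjusted p = 8.77e-05). With total counts the list's count at the start was 6 higher and 1 lower.

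A list of p38 pathway genes, to which the transcription factor gene hlh-30 was added, had 8 tested genes. Of these, 1 rose and 3 fell, hlh-30 among the latter, from the start to food with inhibitor in wild type (median -0.24), and 1 was higher and 0 lower in cdk12-as at the start. With total counts less rrn-2.1, 0 rose and 6 fell in the first of these, and with total counts 0 rose and 3 fell. Without the library that stood apart it was 0 and 1. The kinase gene nsy-1, at the top of the cascade, changed by -0.40 ± 0.08 (adjusted p = 0.000761), hlh-30, a transcription factor of host defence and autophagy, by -0.59 ± 0.18 (adjusted p = 0.013) and the phosphatase gene vhp-1 by -0.46 ± 0.14 (adjusted p = 0.0154). The p38 kinase gene pmk-1 rose in wild type from 31.9 ± 0.648 to 38 ± 1.93 CPM (0.25 ± 0.08, adjusted p = 0.0141), a direction that flips without a call with total counts (-0.25) and total counts less rrn-2.1 (-0.06). It fell in cdk12-as from 35.2 ± 1.46 to 20.9 ± 1.12 CPM (-0.75 ± 0.08). The difference between the strains passed the test (adjusted p = 2.72e-05), as did the effect of the inhibitor on fed cdk12-as larvae (-0.71 ± 0.08, adjusted p = 3.63e-05). Over the interval from the start to food with inhibitor in cdk12-as, dod-24 and dct-17 rose. The activity of the kinase was not measured, and its part in the changes of these genes was not tested.

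Of 12 tested insulin pathway genes, 4 rose and 4 fell from the start to food with inhibitor in wild type (median 0.18, and -0.31 with total counts, where 2 rose and 4 fell; without the library that stood apart 5 rose and 2 fell). The kinase gene akt-1 fell from 171 ± 4.71 to 56.1 ± 0.945 CPM (-1.61 ± 0.09, adjusted p = 3.43e-08) and the receptor gene daf-2 from 401 ± 27.7 to 201 ± 7.49 CPM (-1 ± 0.11, adjusted p = 7.76e-06). The insulin-like ligand gene daf-28 rose from 0.777 ± 0.117 to 5.17 ± 2.19 CPM (2.73 ± 0.29, adjusted p = 6.55e-06). In cdk12-as 2 rose and 4 fell.

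Of 12 tested genes known to be activated by DAF-16, 0 rose and 9 fell from the start to food with inhibitor in wild type (median -1.97), and 1 rose and 4 fell in cdk12-as (median -0.59). In cdk12-as the count was 0 and 6 with total counts (median -0.99) and 1 and 8 with total counts less rrn-2.1. In wild type it was 0 and 10 without the library that stood apart. The metallothionein gene mtl-1 fell from 86.4 ± 12.9 to 4.69 ± 0.228 CPM in wild type and was at 107 ± 25.5 and 49.0 ± 3.64 CPM in cdk12-as. For the alcohol dehydrogenase gene sodh-1 the levels were 2460 ± 180 and 133 ± 83.4 CPM, then 1260 ± 422 and 384 ± 75.2 CPM. The small heat shock gene hsp-12.6 went from 7.69 ± 0.929 to 0.853 ± 0.329 CPM in wild type and stood at 4.71 ± 0.121 and 3.00 ± 0.168 CPM in cdk12-as, and the lipase gene lipl-4 from 4.27 ± 0.0802 to 0.137 ± 0.011 CPM and from 1.67 ± 0.621 to 0.131 ± 0.00131 CPM. After food with inhibitor, 9 of the 12 were higher in cdk12-as and 0 lower, where 19.8% of all genes were called higher and 22.5% lower. At the start 1 was higher and 2 lower, where 5 of the 7 tested genes of the set were higher, dod-24 and dct-17 among them.

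The other dod and dct genes counted were 16, of which 13 were tested. From the start to food with inhibitor in wild type 6 rose and 3 fell (3 and 4 with total counts, 5 and 3 without the library that stood apart), and at the start 1 was higher and 2 lower in cdk12-as. In wild type dct-18 rose by 1.88 ± 0.13 (adjusted p = 1.86e-07), dct-6 by 0.82 ± 0.08 (adjusted p = 3.58e-06), dod-18 by 1.36 ± 0.15 (adjusted p = 7.53e-06) and dct-16 by 1.09 ± 0.16 (adjusted p = 0.000118). Of these, dod-18 was lower in cdk12-as at the start (-1.50 ± 0.16, adjusted p = 6.48e-05), the opposite direction to dod-17, dod-19, dod-22 and dod-24.

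Since whole larvae were sequenced, more cells of a type and more RNA per cell cannot be told apart. The summed level of the 10 measured intestinal markers was 1690 to 1900 CPM in wild type at the start and 2400 to 4420 CPM after food with inhibitor, and 1860 to 2430 and 2690 to 4080 CPM in cdk12-as. Of the 10, 5 rose and 2 fell in wild type over this interval, and 2 were higher and 1 lower in cdk12-as at the start. With total counts these were 1 and 2, and 0 and 1, so the balance turned, and without the library that stood apart the first was 5 and 1. None of the measured ones was at 0 in any group, and their part in the dod and dct-17 changes was not tested. Over the same interval in wild type, 0 of 5 body wall muscle markers rose and 4 fell, 0 of 6 pharyngeal markers rose and 3 fell, 2 of 5 epidermal markers rose and 0 fell, and 1 of 7 neuronal markers rose and 1 fell. Of 5 tested germline markers 1 rose and 2 fell. With total counts, 0 epidermal markers rose and 1 fell, 0 neuronal markers rose and 2 fell, and 0 germline markers rose and 2 fell. Without the library that stood apart, 4 muscle markers and 1 pharyngeal marker fell, 2 epidermal markers rose, and 0 neuronal markers rose and 1 fell. Of the 6 germline markers tested in that fit, 1 rose and 0 fell.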

How the data were processed

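Deposited whole-number counts per gene were analysed as the authors made them, for 16 libraries in 8 groups of 2 assigned from the labels. The tools listed are Trimmomatic, HISAT2, featureCounts, DESeq2 and deepTools 3.2, with genome build ce10, per the submitters' processing notes, which give them no role here. How strand and read pairs were handled for these counts is not given in the sources used here. Lines naming no gene stayed out of library sizes: reads without a feature made up 23.65 to 57.06% and ambiguous reads 0.83 to 10.7% of a column. Exon lengths and positions came from a second deposited table whose file header names featureCounts 1.5.0-p2 and a strand option of 2. Its 32 columns of other counts could not be matched to single samples and stayed out.

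The test was edgeR 4.0.16 under R 4.3.3 (TMM scaling, filterByExpr with minimum count 10, 8 group means, quasi-likelihood F test, Benjamini-Hochberg over 15845 genes, two-sided). Residual degrees of freedom were 8, the median prior ones 4.17, and the common biological variation was 17.3%. SE is the absolute log2 change over the square root of F. CPM uses TMM-scaled sizes and RPKM the exon lengths. Intervals cover the spread in this fit. The 2 libraries of each group differed by more than sampling noise and were kept separate. The fit was also run on simulated counts for the wild-type comparison of food with inhibitor against start. These were drawn from the same fit with far fewer genes changed than were called in the data. They are therefore no check on the scaling, and no result here rests on them.

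The members and lists were chosen with earlier results of these data known. The genes named are all 9 members, up to 4 per list with the smallest adjusted p in wild type from start to food with inhibitor, the 5 genes most like dod-24 and dct-17, cdk-12 and rrn-2.1; marker genes are given as sums and counts. Members used by a comparison's own libraries were given no test there. A planned list of sequence relatives was not built, and no sequences were used here. List genes without a counted row were not analysed here. One gene that the naming rule picks is not reported here. Alternatives were other scalings, filters, DESeq2 1.42.0, the replicate block, the compared groups alone and leaving out each library.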

Additional observations from a re-analysis of the deposited data

Results flagged for a closer look

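Of the tested genes, 4 changed differently in the 2 strains from the start to food with inhibitor, by a test of the difference itself in edgeR. Of these 4, dod-24 and dct-17 had been chosen by a smaller food ratio in cdk12-as, so their tests are not independent of that choice. The log2 difference of cdk12-as minus wild type was -1.55 for dod-24 (adjusted p = 5.37e-05), -1.31 for dct-17 (adjusted p = 0.0226), -0.94 for dod-19 (adjusted p = 0.0417) and -2.88 for dod-20 (adjusted p = 0.00512). Both replicate numbers gave the same direction in all 4 genes. The calls on dct-17 and dod-19 nevertheless depended on single libraries, and that on dod-19 also on the scaling, the filter and the groups fitted, as given with the results. The values of dod-20 rest on 7 to 62 reads per library. For dod-24, dct-17 and dod-19 the cdk12-as level was the higher one at the start, while for dod-20 the wild-type level rose from 0.336 ± 0.171 to 1.34 ± 0.217 CPM and the cdk12-as level was 0.667 ± 0.208 and then 0.359 ± 0.0785 CPM (n = 2 each).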

How the results depend on the processing

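The numbers of tested genes called from the start to food with inhibitor in either strain, in their difference, and between strains at the start and after food with inhibitor stayed within 1.5 times under every scaling, filter, tool and block tried. Leaving out 1 library gave 3 to 5 calls in cdk12-as (main 5) and 2 to 4 in the difference (main 4). It gave 0 to 1 for the inhibitor's difference between strains, 0 to 2 for starvation in wild type and 0 to 1 in cdk12-as. For the inhibitor in cdk12-as, the replicate block and DESeq2 each called 1 gene against 0. For starvation in wild type, total counts called 0, and total counts less rrn-2.1, a filter at 1 CPM, the block and the compared groups alone called 2 each, against 1.

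Single values that changed sign under another scaling, filter or tool were uncalled and near 0. With total counts these were dod-19 (-0.12) from start to food with inhibitor in wild type, dod-3 in cdk12-as (-0.24, and -0.06 less rrn-2.1), dod-3 (0.01) and dod-19 (-0.09) with inhibitor in wild type and cdk12-as, and dod-20 in the inhibitor's strain difference (-0.08, and -0.03 less rrn-2.1). Others were dod-17 (-0.04) and dod-22 (-0.11, and -0.04 less rrn-2.1) in starved cdk12-as, dod-3 between starved strains (-0.05) and dod-17 between fed strains (0.06, and 0.09 less rrn-2.1). With no filter, dod-22 and dod-3 with inhibitor in wild type were 0.01 and 0.02, and with DESeq2, as a test or for size factors, dod-22 in starved cdk12-as was -0.01.

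Without 1 library, the tested values that changed sign ranged over -0.55 to 0.05 for dod-17 in the strain difference from start to food with inhibitor, and -0.28 to 2.26 for dod-3 between strains after it. With inhibitor in wild type they were -0.30 to 0.04 for dod-17, -0.20 to 0.18 for dod-22, -0.01 to 0.63 for dod-20 and -1.76 to 0.78 for dod-3. In cdk12-as dod-19 had -0.17 to 0.32, and in the strain difference dod-20 had -0.31 to 0.76 and dod-3 -0.48 to 2.06. In starved cdk12-as dod-17 had -0.15 to 0.45 and dod-22 -0.08 to 0.15. Between starved strains dod-3 had -0.11 to 0.29, and between fed strains dod-17 had -0.25 to 0.10 and dod-3 -0.29 to 0.88. Of these, dod-3 was called without the second wild-type library fed with inhibitor, at 2.26 (adjusted p = 0.000793) and 2.06 (adjusted p = 0.0211) in the 2 comparisons where it reached those values. Among values given without a test, dct-17 had -0.61 to 0.05 between fed strains, -0.22 to 0.43 with inhibitor in wild type and -0.02 to 0.29 in starved cdk12-as, dod-24 had -0.05 to 0.02 with inhibitor in wild type, dod-20 had -0.16 to 0.85 and -0.94 to 0.03 with food in wild type and cdk12-as, and dod-3 had -0.39 to 0.78 in the food difference. The cause was not tested.

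Total counts moved the median of all genes by -0.50 in wild type and -0.39 in cdk12-as from start to food with inhibitor, by -0.37 with food in wild type and by -0.12 between strains at the start. Over all genes, total counts called 1220 between strains at the start against 3865, 1238 in the strain difference against 4246, 827 with the inhibitor in cdk12-as against 1924 (1105 with the compared groups alone) and 242 in its strain difference against 1099. They called 3885 between strains after food with inhibitor against 6714 (4393 with the compared groups alone), 1049 after starvation against 2865 and 1457 after food against 4579. With food in cdk12-as they called 1165 against 4396, and in starvation 378 and 283 in wild type and cdk12-as (197 in cdk12-as with the compared groups alone). Leaving out 1 library gave 1830 to 3039 genes between strains at the start, 1368 to 1762 after starvation and 2720 to 3216 after food. It gave 246 to 554 in wild-type and 116 to 999 in cdk12-as starvation, 1289 to 1485 with the inhibitor in cdk12-as and 769 to 1101 in its strain difference. The block called 1831 and 1884 in starvation, in wild type and cdk12-as, against 969 and 922. Libraries with the same replicate number deviated together (correlations 0.14 to 0.54 over 28 pairs of groups), and rrn-2.1 took a larger share in every library numbered 1, but the labels do not say what a number marks, and with 2 numbers a shared batch cannot be told from them. Beside the values given with the results, the block changed 1 further call, dod-20 in wild-type starvation (1.44, adjusted p = 0.0496).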
